A study of Mus musculus with 9 samples.

Results

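Aminoacyl-tRNA synthetases, the enzymes that join each amino acid to its transfer RNA, were compared between 3 Cbfb genotypes in the peripheral blood of mouse embryos. Their genes were taken by the symbols of the array's annotation (a letter for the amino acid followed by ars, with or without 1 or 2, and Eprs, Farsa, Farsb and Tarsl2), from probe sets that name 1 gene alone, and the brightest such probe set of a gene, by its mean over 9 arrays, stood for it. This gave 36 of the 18193 genes measured, 20 that serve cytosolic translation and 16 that serve the mitochondrion. A probe set that names Aars together with Exosc6 was not used here. Parents carrying 1 copy of the knock-in allele ΔC95 were crossed, and their embryos were wild type (Cbfb+/+), heterozygous (Cbfb+/ΔC95) or homozygous (CbfbΔC95/ΔC95) on a mixed C57BL6/129SvEv background. Cbfb encodes the core binding factor subunit that partners the RUNX proteins, and by its title the study concerns the C-terminus of the leukaemia fusion protein CBFß-SMMHC. At E12.5, blood of 8-10 embryos of a genotype was pooled and frozen, and RNA was hybridized to 3 arrays per genotype. The labels name no drug or other agent, no Cre or transgene promoter, and no sorting of the blood. The labels do not give the pool behind each array, and if arrays of a genotype share a pool, the spread that the p-values measure is technical.

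Every cell needs a synthetase for each amino acid, and mitochondria translate their own few messages with a separate set of enzymes, whose genes lie in the nucleus. The enzymes fall into class I and class II by the fold of the catalytic domain, and several cytosolic ones sit together with scaffold proteins in the multi-synthetase complex. Many cytosolic synthetase genes are known targets of ATF4, the transcription factor of the amino acid response, and red cell precursors, which fill embryonic blood, translate heavily to make globin.

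All values below are deposited log2 values, in which a difference of 0 is no change, and a gene was called when its adjusted p in limma, corrected by the Benjamini-Hochberg method over 45037 probe sets, was under 0.05. Arrays of a genotype correlated at 0.996 to 0.998, and homozygous with wild-type arrays at 0.987 to 0.988. Cbfb itself had means of 6.01, 5.77 and 5.10 from wild type to homozygote, a homozygous difference of -0.90 ± 0.08 (SE, adjusted p = 3.39e-06, limma), while the heterozygous difference of -0.23 was not called. Whether that probe set lies in the altered stretch of the gene was not examined. The scale is set by the bulk of the transcripts, and the poly-A spike-ins (bacterial RNA mixed in before labelling) were 0.88 higher on heterozygous and 1.58 higher on homozygous than on wild-type arrays. Scaled to them, the median homozygous difference of all genes moved from 0.05 to -1.53, so every direction upward given below holds only relative to the other transcripts of the same array. From wild-type to homozygous blood, 1950 of all genes were higher and 2711 lower, or 2704 and 2500 after quantile normalization. From heterozygous to homozygous blood the split was 978 and 1889, or 1512 and 1780 after quantile normalization, and for the heterozygote against the midpoint it was 663 and 279, or 448 and 1036 when all poly-A spike-ins set the scale. Markers of other cell types also moved with genotype. Of 12 monocyte and macrophage markers, 11 were lower in homozygous blood than in wild type, and their summed linear level was 2186 to 2218 in wild-type, 1682 to 1718 in heterozygous and 362 to 364 in homozygous arrays. All 7 measured megakaryocyte and platelet markers were lower, with sums of 1271 to 1298, 1581 to 1647 and 409 to 463. Of 7 hepatocyte and visceral endoderm markers 5 were higher, led by Afp, with sums of 573 to 581, 450 to 482 and 917 to 982. The defining markers of the labelled blood, the embryonic globins Hbb-y, Hbb-bh1 and Hba-x, had means of 14.18 to 14.42 in every genotype, and of 7 erythroid markers 2 were lower, Epb42 and Alas2. The erythroid sums were 81260 to 81641, 80227 to 81370 and 81814 to 82379. The globin means lay near the highest value of the table, 14.56, where a change may be compressed, and the erythroid sums rest mostly on them. None of these lists had a marker listed at 0. Their part in the synthetase differences was not tested, and in such bulk samples fewer cells of a type and less RNA per cell cannot be told apart.

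Homozygous blood had more transcript of most cytosolic synthetases relative to the rest of the array. Of the 20 genes, 13 were higher than in wild type and 2 were lower, against 10.7% of all genes higher and 14.9% lower, and all 20 were lower when the poly-A spike-ins set the scale. The median difference of the 20 was 0.36, beside 0.05 over all genes. In 16 of them all 3 homozygous arrays lay above all 3 wild-type arrays, and in 2 they lay below. Over all 18193 genes the same counts were 3808 and 3336. The 13 were the genes for the valine, methionine, tyrosine, serine, lysine, alanine, glycine, tryptophan, glutamine, isoleucine and asparagine enzymes and both subunits of the phenylalanine enzyme.

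**Figure D1:**
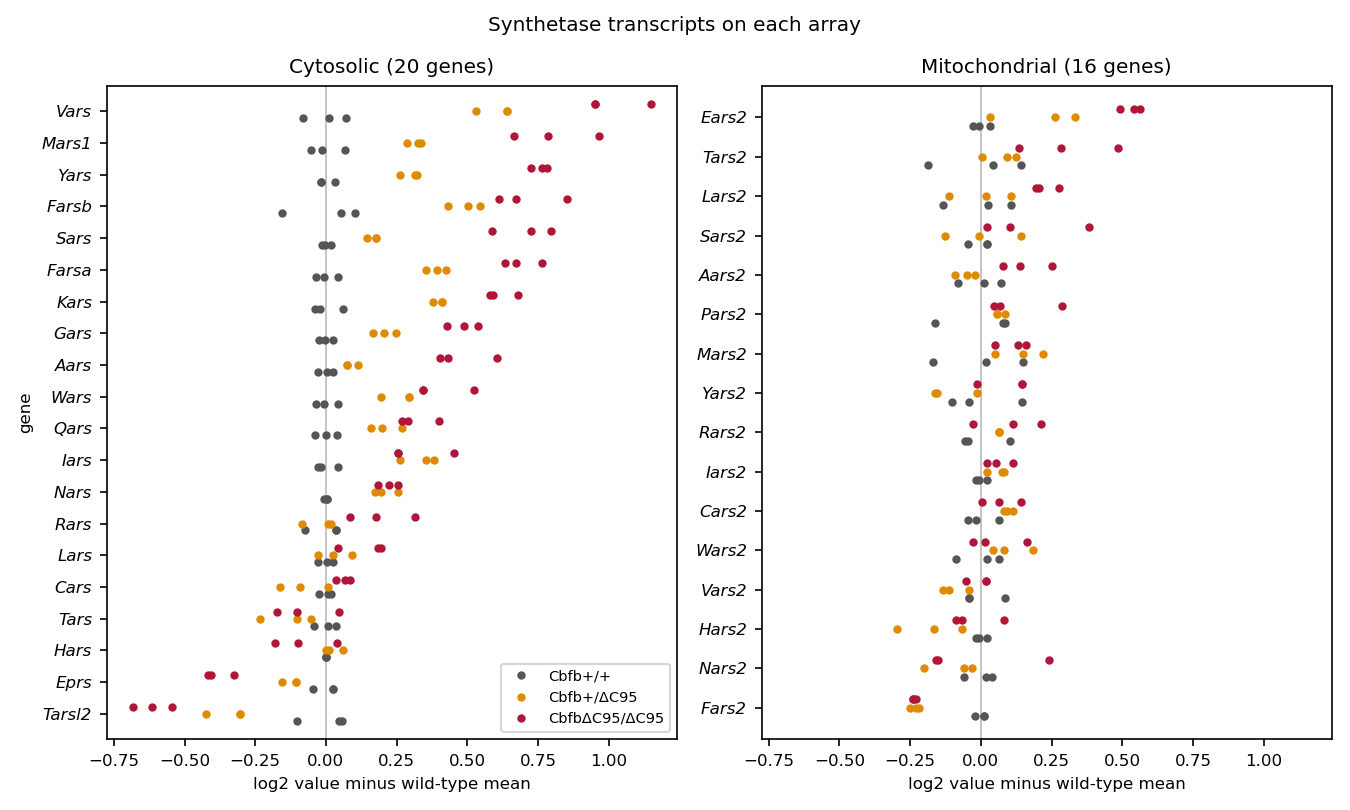
Each point is 1 array, drawn as its log2 value minus the wild-type mean of that gene, for 20 cytosolic (left) and 16 mitochondrial (right) synthetase genes, ordered by the homozygous difference. On the deposited scale most cytosolic homozygous points lie right of the wild-type points with the heterozygous points between, while most mitochondrial genotypes overlap. Scaled to the poly-A spike-ins, all 36 homozygous means fell below wild type.

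On the deposited scale the largest difference was that of Vars, the valine enzyme. With the poly-A spike-ins, without Trp, as the scale, Vars was at -0.56, the smallest size among the genes given array by array for this contrast, and Tarsl2, at -2.20, had the largest. On the deposited scale the 3 wild-type arrays of Vars read 7.12, 7.06 and 6.97, its heterozygous arrays 7.69, 7.69 and 7.58, and its homozygous arrays 8.20, 8.00 and 8.00. No array of a genotype overlapped another genotype. The homozygous mean of Vars was 1.02 ± 0.07 (SE) above wild type, or 2.02-fold, with an adjusted p of 7.85e-07 in limma. Mars1, which charges methionine and so serves the initiator tRNA as well as the elongator, read 8.23, 8.15 and 8.11 in wild-type blood, 8.45, 8.49 and 8.50 with 1 ΔC95 copy and 9.13, 8.95 and 8.83 with 2 copies. The genotypes again lay apart, with the spread widest among the homozygous arrays. Its homozygous difference was 0.80 ± 0.08 (SE), or 1.75-fold, with an adjusted p of 7.87e-06. Yars, the tyrosine enzyme, read 7.29, 7.29 and 7.34, then 7.63, 7.62 and 7.57, then 8.07, 8.09 and 8.03 in the same order of genotypes. These were among the tightest groups, and none overlapped. The homozygous difference of Yars was 0.75 ± 0.05 (SE), with an adjusted p of 8.38e-07.

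The phenylalanine enzyme of the cytosol is built of alpha and beta chains, from Farsa and Farsb, and both genes rose. Farsb read 7.46, 7.72 and 7.67 in wild type, 8.05, 8.16 and 8.12 in heterozygotes and 8.47, 8.23 and 8.29 in homozygotes. Even the highest wild-type array lay below the lowest heterozygous one. Farsa read 7.67, 7.59 and 7.62, then 8.05, 8.02 and 7.98, then 8.39, 8.30 and 8.26, with no overlap between genotypes either. The homozygous differences of the pair were 0.71 ± 0.08 for Farsb and 0.69 ± 0.06 for Farsa (SE, adjusted p = 4.78e-05 and 3.37e-06). The probe sets of Farsa did not all show it: its 3 others differed by 0.08, 0.17 and -0.02. For Farsb, 2 of its 3 others were called higher, at 0.59 and 0.55, and the third, at 0.21, was not. Sars, the serine enzyme, which also charges the selenocysteine tRNA, read 8.31, 8.29 and 8.28 in wild-type blood, 8.47, 8.44 and 8.47 with 1 ΔC95 copy and 9.09, 8.88 and 9.02 with 2 copies. Here the heterozygous arrays lay close above wild type and the homozygous arrays far above both. The homozygous difference of Sars was 0.70 ± 0.06 (SE), and its other probe set was called too, at 0.60.

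In the genes with smaller rises, too, every homozygous array lay above every wild-type array. Aars, the alanine enzyme, was 0.48 higher (SE 0.06), and a second probe set of it gave 0.42. Wars, the tryptophan enzyme, also known as an interferon-induced gene, was 0.40 higher (SE 0.07), and its 3 other probe sets were called at 0.57, 0.35 and 0.41. Qars, the glutamine enzyme, was 0.32 higher (SE 0.06), while its 3 others differed by 0.05, 0.13 and 0.64, of which the last was called. Iars, the isoleucine enzyme, differed by 0.31 (SE 0.07), and its other probe set, at 0.14, was not called. Nars, the asparagine enzyme, had the smallest called rise, 0.22 (SE 0.05), and its other probe set differed by 0.01.

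Gars and Kars each make both the cytosolic and the mitochondrial enzyme from 1 gene, for glycine and lysine. Kars read 7.73, 7.83 and 7.75 in wild type, 8.18, 8.18 and 8.15 in heterozygotes and 8.36, 8.45 and 8.35 in homozygotes, a rise of 0.62 ± 0.06 (SE, adjusted p = 6.49e-06). Gars read 7.73, 7.75 and 7.78, then 7.96, 8.00 and 7.92, then 8.29, 8.24 and 8.18, a rise of 0.48 ± 0.06 (SE, adjusted p = 4.52e-05). Neither gene had overlapping genotypes. With both left out, 11 of the other 18 cytosolic genes were higher.

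**Figure D2:**
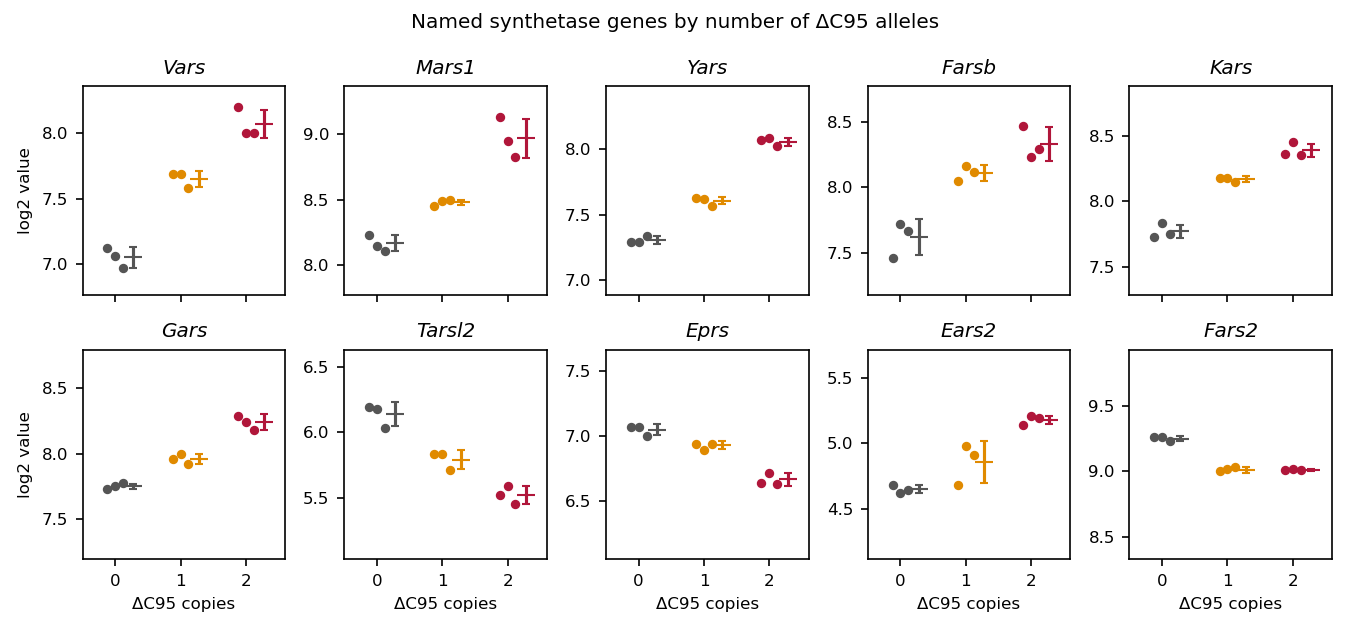
Each point is the log2 value of 1 array, by the number of ΔC95 copies the embryos carried (0, 1 or 2), for 10 synthetase genes, with a bar at the mean and 1 SD of 3 arrays either way. Vars climbs from a mean of 7.05 to 7.65 and 8.07 on the deposited scale, Tarsl2 and Eprs descend, and Fars2 steps down at 1 copy and stays there; vertical axes differ in position but span the same range, and the climbs turn to falls when the poly-A spike-ins set the scale.

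Tarsl2 and Eprs went the other way. Tarsl2 encodes a second cytosolic threonine enzyme beside Tars. Its wild-type arrays read 6.19, 6.18 and 6.03, its heterozygous arrays 5.83, 5.83 and 5.71 and its homozygous arrays 5.52, 5.59 and 5.45. The 3 genotypes did not overlap, and the homozygous difference was -0.62 ± 0.07 (SE, adjusted p = 2.97e-05), or 1.53-fold lower. Eprs is the bifunctional enzyme that charges both glutamate and proline, and the annotation holds no separate cytosolic gene for either. Its arrays read 7.07, 7.07 and 7.00 in wild-type blood, 6.94, 6.89 and 6.94 with 1 ΔC95 copy and 6.64, 6.72 and 6.63 with 2 copies. The homozygous arrays lay below all others, at a difference of -0.38 ± 0.06 (SE, adjusted p = 0.00031). The other probe sets of Eprs differed by -0.23, which was called, and by -0.15 and 0.12, which were not.

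For 5 cytosolic genes no homozygous difference was called. Cars, Hars, Lars, Rars and Tars, for cysteine, histidine, leucine, arginine and threonine, had differences between -0.08 and 0.19. The 95% interval of Rars, from 0.04 to 0.35, reached the size of the rises of Iars and Qars, and that of Lars, up to 0.27, reached the rise of Nars. The intervals of Cars, Hars and Tars ended at 0.19, 0.06 and 0.08, below the smallest called rise. In Cars, Lars and Rars all homozygous arrays lay above all wild-type arrays, as they did in 3808 of all 18193 genes. A second probe set of Cars was called higher, at 0.30. In Hars and Tars the arrays overlapped.

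The rises were spread over both structural classes and both sides of the complex. Of 9 cytosolic class I genes 6 were higher and 0 lower, and of 10 class II genes 7 were higher and 1, Tarsl2, was lower. Eprs holds a domain of each class. Of the 7 measured synthetases of the multi-synthetase complex (Eprs, Iars, Kars, Lars, Mars1, Qars and Rars), 4 were higher and 1 lower, with a median of 0.31. Outside the complex 9 of 13 were higher and 1 lower, with a median of 0.48. Over all genes 10.7% were higher and 14.9% lower, and among those with a mean of 6.5 to 8 the shares were 22.8% and 30.8%. Whether the shares differ between the classes, or inside and outside the complex, was not tested. All these counts upward became 0 when the poly-A spike-ins set the scale.

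Few mitochondrial synthetases were called, and for a group of 16 genes so few calls lie near the shares of all genes. Of 16 genes, 1 was higher in homozygous blood than in wild type and 1 was lower, against 10.7% and 14.9% of all genes, and the median difference was 0.10, which became -1.48 when the poly-A spike-ins set the scale. The higher gene was Ears2, which charges glutamate and whose product also loads the mitochondrial glutamine tRNA before amidation. Ears2 read 4.68, 4.62 and 4.64 in wild type, 4.68, 4.98 and 4.91 in heterozygotes and 5.14, 5.21 and 5.19 in homozygotes. Its homozygous arrays lay above all others, while 1 heterozygous array read the same as the highest wild-type array. The homozygous difference was 0.54 ± 0.08 (SE, adjusted p = 0.000217), but the 3 other probe sets of Ears2, at 0.01, 0.16 and 0.17, were not called. The lower gene was Fars2, the mitochondrial phenylalanine enzyme, a single chain unlike its cytosolic counterpart. Fars2 read 9.26, 9.26 and 9.23 in wild-type blood, 9.00, 9.02 and 9.03 in heterozygous and 9.01, 9.02 and 9.01 in homozygous blood. Both mutant genotypes lay below wild type and overlapped each other. The homozygous difference was -0.24 ± 0.05 (SE, adjusted p = 0.00503), the other probe set of Fars2 differed by 0.07, and the mean over both probe sets was not called at -0.08.

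For the other 14 mitochondrial genes the homozygous differences lay between -0.03 and 0.30. Their 95% intervals ran from -0.24 to 0.52, and the interval of 1 of them, Tars2, passed 0.5. Tars2, the threonine enzyme, differed by 0.30 ± 0.10 (SE) with an adjusted p of 0.054 in limma, its arrays overlapped, and a second probe set was called at 0.36. Lars2 and Aars2, for leucine and alanine, differed by 0.22 and 0.16 and were not called. Their homozygous arrays lay above all wild-type arrays, as in 3 of the 16 mitochondrial genes and 3808 of all 18193 genes. The mitochondrial tyrosine gene Yars2 differed by 0.10 and was not called, but another probe set of it was, at 0.29. The count of mitochondrial genes called higher was 4 after quantile normalization, and also 4 when the mean of a gene's probe sets was used, and Fars2 was not called under either.

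Set side by side, 12 amino acids had 1 measured enzyme gene for each compartment. The cytosolic difference was the larger in 9 of the 12 pairs, and 8 cytosolic against 0 mitochondrial genes of these pairs were called. Valine had the widest gap, with 1.02 ± 0.07 for Vars and -0.01 ± 0.06 for Vars2 (SE). For methionine the values were 0.80 ± 0.08 and 0.12 ± 0.08, and for tyrosine 0.75 ± 0.05 and 0.10 ± 0.08. Cysteine, histidine and leucine were the exceptions among the 12 pairs, where neither gene was called. Glutamate, proline, threonine and phenylalanine fell outside the pairs, and with them the called mitochondrial genes Ears2 and Fars2. For glutamate and proline, Ears2 and Pars2 differed by 0.54 and 0.13 and Eprs by -0.38. For threonine, Tars2 differed by 0.30, Tars by -0.08 and Tarsl2 by -0.62. For phenylalanine, Fars2 differed by -0.24, Farsa by 0.69 and Farsb by 0.71. All these values describe 1 set of arrays, and the difference within a pair was not tested.

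**Figure D3:**
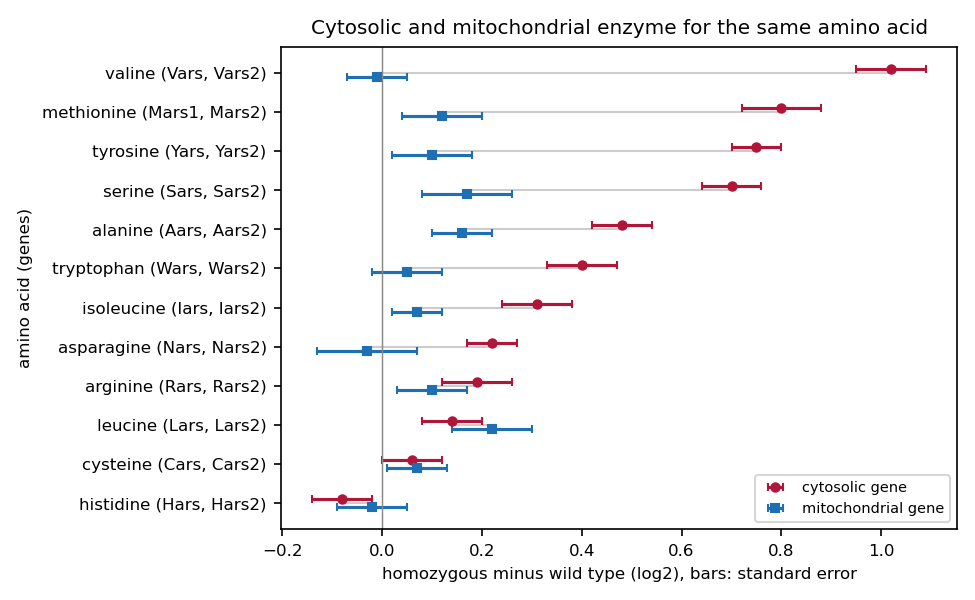
Homozygous minus wild-type log2 difference of the cytosolic (red circle) and the mitochondrial (blue square) gene for each of 12 amino acids, with bars of 1 standard error from the limma fit. The red points of valine, methionine, tyrosine and serine lie at 0.70 to 1.02 and their blue partners at -0.01 to 0.17 on the deposited scale; with the poly-A spike-ins as the scale all points lie below 0.

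The mitochondrial probe sets were also dimmer, with wild-type means of 2.48 to 9.25 against 5.29 to 11.48 for the cytosolic ones, and the share of all genes called was higher at higher levels. Under a mean of 5 over the 9 arrays, 4.08% of all genes were higher and 5.27% lower in homozygous blood, and of 3 mitochondrial synthetases there Ears2 was higher. Among genes with a mean of 6.5 to 8, 22.8% were higher and 30.8% lower, and of the 12 cytosolic synthetases in that range 8 were higher and 1 lower. At 8 and over, 28.2% of all genes were higher and 37.8% lower, beside 5 of 6 cytosolic synthetases higher. Between 5 and 6.5 the shares of all genes were 10.2% and 15.7%, and none of the 10 mitochondrial synthetases there was called, nor was Cars, while Tarsl2 was lower. In the range from 6.5 upward lay 3 mitochondrial genes, of which 0 were higher and 1, Fars2, was lower. Mars2, the dimmest, with a wild-type mean of 2.48, was read near the lowest values of the table, which began at 1.49.

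**Figure D4:**
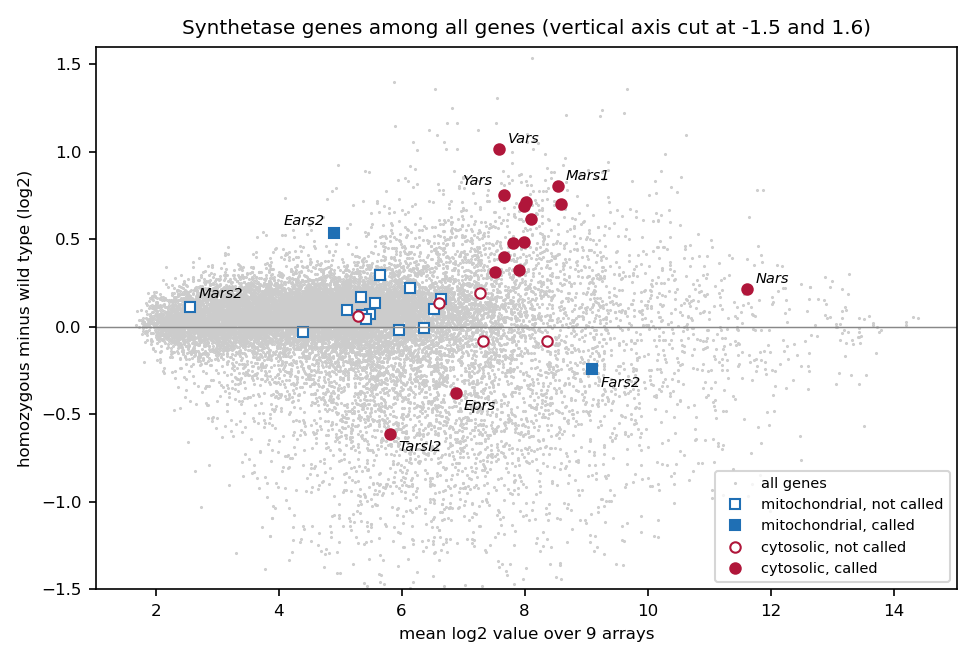
Homozygous minus wild-type log2 difference (vertical, limited to -1.5 to 1.6) against the mean log2 value over 9 arrays (horizontal) for all 18193 genes in grey, with cytosolic synthetases as red circles and mitochondrial ones as blue squares, filled where called. Most red points lie at means of 6.5 to 9 and above 0 on the deposited scale, and most blue points lie at 4 to 7 near 0; with the poly-A spike-ins as the scale all of them lie below 0.

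In heterozygous blood 10 of the 20 cytosolic genes were higher than in wild type and 1 was lower, against 4.79% of all genes higher and 7.04% lower. On the deposited scale the median difference from wild type was 0.20, beside 0.01 over all genes, and it was -0.68 when the poly-A spike-ins set the scale. Vars led again, at 0.60 ± 0.07 (SE, adjusted p = 0.000284), followed by Farsb at 0.49 ± 0.08, Kars at 0.40 ± 0.06 and Farsa at 0.39 ± 0.06. Mars1, Yars, Iars, Wars, Gars and Nars were called at 0.20 to 0.33. Tarsl2 was called lower at -0.34 ± 0.07, while Eprs, at -0.12 ± 0.06, was not called (SE). With the poly-A spike-ins as the scale, Eprs was called lower too, at -0.90 with the Trp probe sets, and also without them. On the deposited scale another probe set of Eprs was called lower, at -0.33 (adjusted p = 0.0124, limma). Aars and Sars, which were among the called rises in homozygous blood, differed by 0.09 and 0.16 here and were not called, and neither was Qars at 0.21. Of the mitochondrial genes 0 were higher and 1, Fars2, was lower, at -0.23 ± 0.05 (SE, adjusted p = 0.013), with a median of 0.03. The other probe set of Fars2 differed by -0.02 and was not called. The 15 other mitochondrial genes had differences of -0.17 to 0.21, with intervals of -0.33 to 0.37. Several of these calls depended on single arrays. Leaving out wild-type replicate 2, wild-type replicate 3, heterozygous replicate 1 or heterozygous replicate 2 took the cytosolic count from 10 to 6. Gars was called in 2 of the 9 fits without 1 array. Fars2 lost its call without wild-type replicate 1, wild-type replicate 2 or heterozygous replicate 1, and its value stayed at -0.23 in each.

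Between the mutant genotypes, 8 cytosolic genes were higher in homozygous than in heterozygous blood and 2 were lower, against 5.38% and 10.4% of all genes, and all 20 were lower when the poly-A spike-ins, without Trp, set the scale. The median was 0.18, beside 0.03 over all genes. Sars had the largest step, 0.54 ± 0.06 (SE, adjusted p = 0.000103), ahead of Mars1 at 0.49 ± 0.08, Yars at 0.45 ± 0.05 and Vars at 0.41 ± 0.07. Aars, Farsa, Gars and Kars completed the 8, at 0.22 to 0.39, and Kars was called in 5 of the 9 fits without 1 array. Tarsl2 and Eprs were lower, at -0.27 ± 0.07 and -0.26 ± 0.06 (SE), and Tarsl2 was not called without heterozygous replicate 1, heterozygous replicate 2 or homozygous replicate 3. The other probe sets of Eprs differed by 0.10, 0.08 and -0.10 and were not called. Among mitochondrial genes, Ears2 was higher, at 0.33 ± 0.08 (SE, adjusted p = 0.0137), and 0 were lower. The other probe sets of Ears2 differed by -0.01, 0.08 and 0.04 and were not called, while a second probe set of Tars2 was called higher, at 0.31. This contrast shares arrays with both others, so its values are given beside theirs and not as a further test.

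On the deposited scale the genotype means of most called cytosolic synthetases, by their brightest probe sets, followed the number of ΔC95 copies. Of the 13 cytosolic genes higher in homozygous blood, the heterozygous mean lay between the other means in 12. The exception was Iars, with means of 7.31, 7.64 and 7.62. The 13 were picked by their homozygous rise, and the share of all called genes with such an order was not counted. Both lower genes, Tarsl2 and Eprs, also had the heterozygous mean in between. Other probe sets did not all keep this order. One of Eprs had means of 6.44, 6.10 and 6.20, and that of Nars 11.36, 11.51 and 11.37, while those of Aars and Sars kept it. The distance of the heterozygote from the midpoint of the other genotypes was called for 0 of the 36 synthetases, against 3.64% of all genes above and 1.53% below it. That distance lay between -0.19 and 0.17 over the cytosolic genes, with 95% intervals from -0.31 to 0.30, and between -0.16 and 0.09 over the mitochondrial ones. Gars was at -0.03, Kars at 0.09 and Eprs at 0.07. The intervals leave room for departures from the midpoint of that size, and 2 to 4 cytosolic genes were called below the midpoint when the poly-A spike-ins set the scale. By the same test 9 of 12 macrophage and all 7 megakaryocyte markers were called above the midpoint, and none of the 7 erythroid markers was called above or below it.

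The promoters of these genes were searched for the core of the element that ATF4 binds together with a C/EBP partner, TGATGCAA on either strand, because many cytosolic synthetase genes are known ATF4 targets. RefSeq promoter sequences of build GRCm38.p6, running from 250 bases before to 50 after the start, held 27 of the 36 genes. The core occurred in 4 of them, Aars, Iars, Tars and Yars, and in 0.895% of all 32851 windows, or 1.03% of 27025 genes. The 4 stretches are shown 5′ to 3′ on the strand of the gene, from 130 bases before to 15 after the start, with the core in capitals, so that its distance from the start can be seen. The start is that of the window's transcript, and a gene can have several windows. Aars and Yars as genes begin further upstream, at chr8:111027778 and chr4:129189734. They lie at chr8:111033712-111033856 on the plus strand (Aars), chr13:49682000-49682144 on the plus strand (Iars), chr15:11399644-11399788 on the minus strand (Tars) and chr4:129189773-129189917 on the plus strand (Yars).
Aars: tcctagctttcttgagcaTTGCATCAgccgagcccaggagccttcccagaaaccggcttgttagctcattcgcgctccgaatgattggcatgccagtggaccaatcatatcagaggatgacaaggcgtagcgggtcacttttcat
Iars: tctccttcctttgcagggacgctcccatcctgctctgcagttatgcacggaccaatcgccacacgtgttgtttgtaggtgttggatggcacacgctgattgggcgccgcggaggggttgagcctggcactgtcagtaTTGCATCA
Tars: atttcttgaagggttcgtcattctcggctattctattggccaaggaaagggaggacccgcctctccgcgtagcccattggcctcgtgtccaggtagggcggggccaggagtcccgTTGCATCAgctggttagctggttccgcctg
Yars: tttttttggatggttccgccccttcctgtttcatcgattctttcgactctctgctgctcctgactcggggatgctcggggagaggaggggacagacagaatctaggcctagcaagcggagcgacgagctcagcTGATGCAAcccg
In Aars, Iars and Tars the core is read on the opposite strand, as TTGCATCA, and in Yars on the same strand. Its first base lies at -112 in Aars, at -15 in Tars, at 4 in Yars and at 8 in Iars, counted from the start as 1. Aars, Iars and Yars were called higher in homozygous blood and Tars was not, beside 13 of all 20 cytosolic genes called higher. A link between the core and the calls was not tested. The E-box CACGTG, searched on both strands after the values were known, occurred in 5 members (Aars, Ears2, Farsb, Iars and Tars) and in 7.15% of all windows, or 8.09% of genes, and shared no base with the core in any of them. A match describes the letters of these windows and not binding.

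Genes whose products work beside the synthetases were called in part. Of 7 measured scaffold and editing genes, 3 were higher in homozygous blood and 1 lower, with a median of 0.19, beside 10.7% of all genes higher and 14.9% lower, shares that also stand behind the next lists. Aarsd1, whose product clears wrongly charged alanine tRNA, was 0.56 ± 0.06 higher, and Eef1e1 and Aimp2, scaffolds of the multi-synthetase complex, were 0.55 ± 0.05 and 0.34 ± 0.06 higher (SE). The third scaffold, Aimp1, was not called at -0.15 ± 0.06 but was lower in heterozygous blood at -0.35 ± 0.06 (SE, adjusted p = 0.00427). Prorsd1, which resembles the editing domain of bacterial proline enzymes, was lower in both mutant genotypes, at -0.59 and -0.58. In heterozygous blood 2 of the 7 were higher, Aarsd1 and Eef1e1, and 2 were lower, Prorsd1 and Aimp1, beside 4.79% and 7.04% of all genes. Of 10 genes that prepare or deliver mitochondrial aminoacyl-tRNA, 4 were higher and 0 lower, with a median of 0.09. They were Tufm and Tsfm, the mitochondrial elongation factors, at 0.56 and 0.22, and Hsd17b10 and Elac2, at 0.35 and 0.34. The products of Hsd17b10 and Elac2 take part in cutting tRNA out of mitochondrial precursors. Trmt10c, on the same list, went down, at -0.23 ± 0.08 (SE), and was not called. In heterozygous blood only Tufm of the 10 was called, at 0.33. Gatb, Gatc and Qrsl1, the subunits that amidate the glutamate loaded by Ears2, differed by 0.01, 0.08 and 0.10 and were not called. Among 4 cytosolic elongation factors, Eef2 and Eef1d were higher, at 0.39 and 0.32, with a median of 0.23 over the 4, while Eef1a1, which carries the charged tRNA to the ribosome, was not called at -0.10. Like the synthetases, these genes are given on the deposited scale.

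The amino acid response list, which holds Atf4 and its upstream kinase gene Eif2ak4 beside genes downstream of ATF4, was mixed. Of its 20 genes, 8 were higher in homozygous blood and 2 lower, with a median of 0.10, beside 10.7% and 14.9% of all genes. The largest rises were those of Shmt2 and Mthfd2, mitochondrial enzymes of folate one-carbon metabolism, at 1.06 ± 0.06 and 0.86 ± 0.07, of Aldh18a1, which makes the proline precursor, at 0.90 ± 0.08, and of the transcription factor Atf5, at 0.86 ± 0.06 (SE). Cebpb and Atf3 were lower, at -0.33 and -0.21. Other members of the programme were near 0: Psat1 differed by 0.00 and Chac1 by -0.08, and neither was called. Atf4 itself was not called in homozygous blood, at -0.14 ± 0.05, and was lower in heterozygous blood, at -0.25 ± 0.05 (SE, adjusted p = 0.0118). In heterozygous blood 4 of the 20 were higher and 3 lower, beside 4.79% and 7.04% of all genes and 10 of 20 cytosolic synthetases higher. Asns, which makes asparagine, followed the order of the genotypes, with means of 9.59, 9.96 and 10.20, whereas Atf5, at 7.43, 7.48 and 8.29, differed mainly between the mutant genotypes. Scaling to the poly-A spike-ins lowered the values of all these genes with the rest of the array.

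Different probe sets of a gene did not always give the same call. Besides the brightest ones, 37 probe sets name 23 of the synthetase genes. The counts here are for homozygous against wild-type blood. Of the 23 that belong to called genes, 9 were called in the same direction, 0 in the opposite one, and 14 were not called. Of the 14 that belong to uncalled genes, 3 were called, those of Cars, Tars2 and Yars2 given above, all higher.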

How the data were processed

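Pooled embryonic blood gave total RNA by RNA-STAT extraction, which was biotin-labelled and hybridized to 9 Affymetrix whole-genome mouse arrays, per the labels' protocols. RMA, Partek 6.5 and Affymetrix Expression Console 1.0 are listed in the submitters' processing notes, with no role given. The deposited table of 45101 probe sets spans 1.49 to 14.56, and its values were read as log2 because of this range and of RMA, the scale being unstated. Their sorted columns lay within 0.099 of the mean sorted column, so an overall difference in RNA content between genotypes is not visible in them. No scanner files or detection calls were used, so how far a signal stood above background is unknown, and the number of arrays limits precision.

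The platform annotation named 1 gene for 34945 of the 45037 probe sets left after 64 controls, several for 932 and none for 9160. All 36 synthetase genes matched RefSeq by Entrez identifier, with unchanged symbols. A genotype model of all 9 arrays was fitted in R 4.3.3 by lmFit, contrasts.fit and eBayes of limma 3.58.1, with 2-sided tests, Benjamini-Hochberg adjustment over all 45037 probe sets and a threshold of 0.05. The fit was checked on simulated data. Counts of genes use each gene's probe set with the highest mean. The genes given array by array are, per contrast and compartment, up to 4 called members with the largest rise and 4 with the largest fall, together with Gars, Kars and Eprs. Farsa and Sars enter through the other contrasts. From each list up to 4 called genes with the largest change are named, or up to 2 uncalled ones. Aimp1, Atf4, Asns, Eef1a1, Gatb, Gatc, Qrsl1 and Trmt10c and the synthetases with smaller changes were named after their values were seen. The members and lists were chosen with earlier results of these data known. Some listed genes are not reported here. Replicate numbers do not pair the samples. Alternatives changed the normalization, the variance model, array weights, probe set choice, the adjustment, the threshold, the samples in the fit and the filter on dim probe sets, and left out each array in turn. Scaling to the poly-A spike-ins without the Trp probe sets, which read near background, was chosen after seeing the data.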

Additional observations from a re-analysis of the deposited data

Results flagged for a closer look

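The poly-A spike-in probe sets, which were not tested as genes, differed between genotypes. Over 24 probe sets of Dap, Lys, Phe and Thr, the mean log2 value was 10.38 ± 0.02 on wild-type, 11.26 ± 0.00 on heterozygous and 11.96 ± 0.02 on homozygous arrays (SD, n = 3 each). The homozygous mean was therefore 1.58 and the heterozygous mean 0.88 above wild type. Comparisons on the deposited scale do not use these probe sets, while the spike-in scalings given beside them do. Over 18 probe sets of the hybridization controls, which join the sample only after labelling, the means were 10.32 ± 0.01, 10.32 ± 0.04 and 10.60 ± 0.07 in the same order. Vars, the synthetase gene with the largest rise, differed by 1.02 in homozygous blood, which is less than the spike-ins did.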

How the results depend on the processing

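Outside spike-in scaling, no named synthetase gene changed sign over the alternatives. Of 687 values of named genes, 616 kept their direction and side of the threshold, 31 were no longer called, 2 became called (Eprs in heterozygous blood under both spike-in scalings, at -0.90 with Trp) and 38 reversed, all 38 under spike-in scaling. The count of cytosolic genes higher in homozygous than in wild-type blood ran from 11 to 15 over 22 settings, and 2 stayed lower. With the poly-A spike-ins as the scale, with and without the Trp probe sets, 0 and 0 cytosolic genes were higher and 20 and 20 lower in homozygous blood, with medians of -1.05 and -1.22, and 0 and 0 mitochondrial genes were higher and 16 and 16 lower, with medians of -1.31 and -1.48. For heterozygous blood these scalings gave 0 higher and 20 lower cytosolic genes, medians of -0.57 and -0.68, 16 lower mitochondrial genes and medians of -0.74 and -0.85. From heterozygous to homozygous blood they gave 0 higher and 18 or 20 lower cytosolic genes, medians of -0.45 and -0.52, 0 higher and 16 lower mitochondrial genes and medians of -0.55 and -0.62. Against the midpoint they gave 2 and 4 lower cytosolic genes, medians of -0.07 and -0.09, and 1 and 5 lower mitochondrial genes, whose median was -0.17 without Trp. Under the same 2 scalings the homozygous differences from wild type were -0.40 and -0.56 for Vars, -0.61 and -0.78 for Mars1, -0.66 and -0.83 for Yars, -0.70 and -0.87 for Farsb, -0.88 and -1.05 for Ears2, -0.93 and -1.10 for Gars, and -0.79 and -0.96 for Kars, while the falls of Tarsl2, Eprs and Fars2 grew to -2.03 and -2.20, -1.79 and -1.96, and -1.65 and -1.82. The heterozygous differences were -0.17 and -0.28 for Vars, -0.28 and -0.39 for Farsb, -0.38 and -0.48 for Kars, -0.39 and -0.49 for Farsa, and -0.57 and -0.67 for Gars. From heterozygous to homozygous blood they were -0.10 and -0.16 for Sars, -0.14 and -0.21 for Mars1, -0.18 and -0.25 for Yars, -0.22 and -0.29 for Vars, -0.31 and -0.37 for Ears2, -0.36 and -0.42 for Gars, and -0.42 and -0.48 for Kars. Subtracting the spike-in means lowers every gene of an array alike, and why the spike-ins differed was not tested.

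Mitochondrial genes higher in homozygous than in wild-type blood numbered 3 with an intensity trend, 3 without the dimmest probe sets, 3 when adjusted over genes, 4 after quantile normalization and 4 with the mean of a gene's probe sets, and the last 2 settings gave 0 lower. From heterozygous to homozygous blood the count was 2 with an intensity trend, without the dimmest probe sets, with the mean of a gene's probe sets or adjusted over genes, 3 after quantile normalization and 0 at a threshold of 0.01. The cytosolic homozygous median was 0.46 after quantile normalization and 0.26 with the mean of a gene's probe sets. At a threshold of 0.01, 6 cytosolic genes were higher in heterozygous blood and 0 mitochondrial genes lower, also 0 with the mean of a gene's probe sets, and 1 cytosolic gene was lower from heterozygous to homozygous blood under either setting. Against the midpoint, 1 cytosolic gene was higher with an intensity trend or array weights, 1 was lower with an intensity trend, without the dimmest probe sets, after quantile normalization or with the mean of a gene's probe sets, and 1 mitochondrial gene was lower with an intensity trend. The cause was not tested.

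Leaving out each array in turn gave 13 to 14 cytosolic genes higher and 2 lower in homozygous blood, 6 to 11 higher and 1 lower in heterozygous blood, and 7 to 8 higher and 1 to 2 lower between them. The mitochondrial counts were 1 to 2 higher and 1 lower, 0 to 1 higher and 0 to 1 lower, and 1 to 2 higher and 0 lower. Against the midpoint 0 to 1 cytosolic genes were higher and 0 to 1 lower. The medians ran from 0.31 to 0.39, 0.19 to 0.20 and 0.15 to 0.20 over the cytosolic genes, and from 0.06 to 0.12, -0.01 to 0.06 and 0.07 to 0.12 over the mitochondrial ones. The replicate numbers gave correlations of -0.02 to 0.07 between same-numbered arrays, so they share only a number. With the replicate block 13 cytosolic genes were higher in homozygous and 8 in heterozygous blood, and of the named genes only Gars lost its call, in heterozygous blood. Mars2 was removed by the filter on dim probe sets.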
